A study of Nasonia vitripennis and Nasonia giraulti with 12 samples.

Results

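Adult males and females of the jewel wasp Nasonia vitripennis were compared within the species, in 6 of the 12 libraries of the series (3 of each sex). The libraries were taken by the species and sex in their labels. Each held messenger RNA from the whole bodies of a pool of 10 wasps of the strain AsymCX, collected 24 h after they left the pupal case, and the labels describe the 3 pools of a sex as independent batches. No drug, transgene or other treatment is named, and the sources used here do not give mating status. The other 6 libraries came from males and females of the sister species N. giraulti (strain R16A), at the same age and pool size. They entered the same fit, so that all groups shared an estimate of the spread, and they were a second set of animals in which the genes called in N. vitripennis could be looked at.

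Nasonia are small wasps whose young feed on fly pupae. A fertilised egg gives a diploid female and an unfertilised egg a haploid male, so the sexes differ in the number of chromosome sets and have no sex chromosomes. Females carry ovaries, a venom gland and a sting, and they find, drill and feed on hosts. Males carry testes, produce a sex pheromone and court, and in N. vitripennis they have short wings and do not fly. Whole bodies were measured, so a sex difference in a gene cannot be told apart from a sex difference in the size of the organ that uses it, and fewer cells of a type cannot be told apart from less RNA per cell.

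The table held read counts for 24337 genes, each under an identifier of the form Nasvi2EG followed by a number. None of the identifiers matched the RefSeq name table used here, so the products of the genes are not named, the labelled tissue could not be checked against marker genes, and identifiers are printed for 4 genes only. Total counts were 24516522 to 47509108 in the 3 female libraries and 23763596 to 51374887 in the 3 male libraries, with library 1 the deepest of each sex. Levels of single genes are given as CPM scaled with trimmed-mean (TMM) factors. Numbers of genes found, sex-limited genes and percentages of counts use the library total instead. CPM values are shares of reads and are not corrected for gene length, so an order of genes by CPM is an order by reads, not by molecules. Sex accounted for 86.04% of the variance of log2 CPM over the 16536 tested genes in these 6 libraries, the replicate number for 10.7% and the remainder for 3.22%. The first principal component (86.7%) parted the sexes, and the second (7.34%) parted the libraries numbered 1 from those numbered 2 and 3 in both sexes. The first libraries thus stood apart, and the counts of called, 2-fold, 10-fold and sex-limited genes and of species differences are also given without them.

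The sexes differed in most of the genes that could be tested. In N. vitripennis 10745 genes, 65% of those tested, passed an adjusted p of 0.05 (edgeR quasi-likelihood test, Benjamini-Hochberg adjustment, 3 libraries per sex). They were divided almost evenly, with 5385 genes (32.6%) at a higher level in males and 5360 (32.4%) at a higher level in females. Without the libraries numbered 1 the counts were 5543 and 5616, and 4862 of the male calls and 5208 of the female calls were among those of the full set. The 3 male and the 3 female libraries did not overlap for 10325 of the 10745 called genes. Non-overlap alone was found for 35.2% of tested genes with males higher and for 33.6% with females higher, and 1044 of the genes that did not overlap were not called. The tie between the directions depended on how the libraries were scaled. Males were higher in 50.12% of calls with TMM scaling and in 65.53% with upper-quartile scaling, which moved the median log2 fold change of all tested genes from 0.22 to 0.79.

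The male and the female side had different shapes. Among genes higher in males, 2994 of 5385 (55.6%) differed by 2-fold to 4-fold and 506 (9.40%) by 10-fold or more. Among genes higher in females, 2083 of 5360 (38.9%) differed by 2-fold to 4-fold and 1117 (20.8%) by 10-fold or more. At the far end, 182 genes stood 100-fold or more toward males and 309 toward females. As shares of all tested genes, those at 2-fold or more made up 29.2% toward males and 27.2% toward females, and those at 10-fold or more 3.06% and 6.75%. With upper-quartile scaling the counts at 10-fold or more were 699 and 876, and at 2-fold or more 6799 and 3128. Counted from the median of all tested genes instead of from equality, called or not, 454 genes lay 10-fold or more toward males and 1243 toward females, and 4871 and 5264 lay 2-fold or more. Without the libraries numbered 1 the counts from equality were 545 and 1120 at 10-fold or more and 4758 and 4466 at 2-fold or more. These classes describe genes picked on the same 6 libraries.

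The fullest part of the distribution lay on the male side. Of the 16536 tested genes, 3834 (23.2%) had a log2 fold change of males over females from 1 to 2, and 2226 had one from -2 to -1. The single fullest bin, from 1.0 to 1.5, held 1953 genes, of which 1358 were called. The bin of the same width on the female side, from -1.5 to -1.0, held 1223 genes, of which 1116 were called. Another scaling moves all of these values together, by the shift of the median. Beyond 4 log2 units the order turned, with 845 genes on the female side and 382 on the male side.

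**Figure D1:**
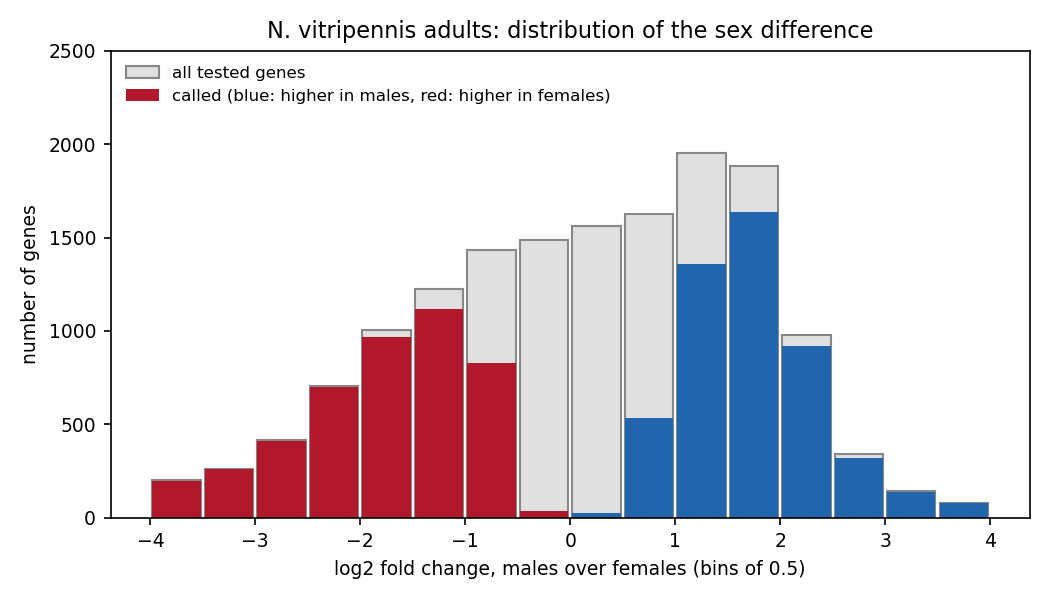
Number of tested genes (vertical axis) by log2 fold change of N. vitripennis males over females (horizontal axis, bins of 0.5), with all tested genes in grey and called genes in blue (higher in males) or red (higher in females). The fullest bin holds 1953 genes between 1.0 and 1.5, the female side falls off more slowly, and the 845 genes under -4 and the 382 genes at 4 or above lie outside the plot.

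Genes higher in males were mostly low in reads and genes higher in females were mostly well covered. The median level in males of the genes called higher in males was 10.3 CPM, with quartiles of 1.77 and 57.3 CPM. The median level in females of the genes called higher in females was 56.6 CPM, with quartiles of 21.7 and 120.3 CPM. In the males 887 of the 5385 genes stood under 1 CPM, and in the females 163 of the 5360. At the other end 3217 genes reached 100 CPM in at least a sex, and of these 934 (29.0%) were called for males and 1649 (51.3%) for females.

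Ranked by mean level over the 6 libraries, the tested genes changed sides. In quartile 1, up to 1.47 CPM, 1552 genes (37.5%) were called for males and 387 (9.36%) for females. In quartile 2, up to 14.8 CPM, the counts were 1766 and 1020. Quartile 3, up to 54.6 CPM, held 979 genes called for males and 1965 for females, and quartile 4 held 1088 and 1988. The median log2 fold change was 1.04 in quartile 1, 0.75 in quartile 2, -0.58 in quartile 3 and -0.46 in quartile 4. A gene nearly silent in a sex has a low mean for that reason, so the position of strongly biased genes in this ranking is partly fixed by their bias. Restricting the test to a mean of at least 1 CPM over all 12 libraries gave 4595 calls for males and 4702 for females. The median log2 fold change was then 0.06.

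**Figure D2:**
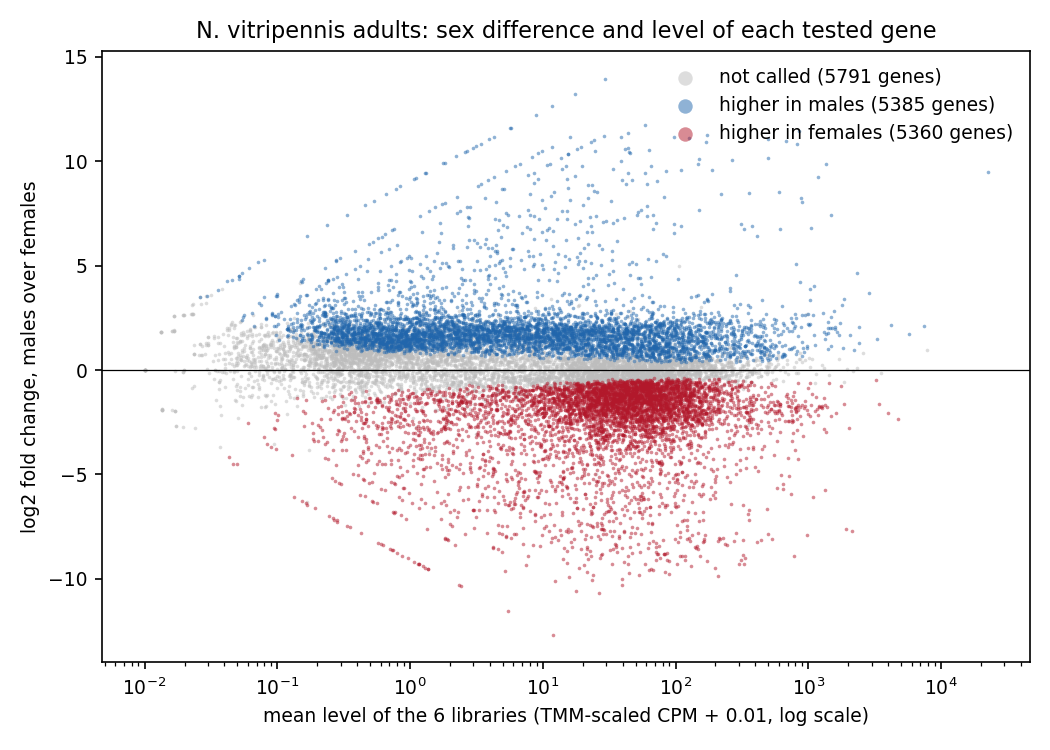
Each point is a tested gene, with its mean level over the 6 N. vitripennis libraries (TMM-scaled CPM plus 0.01, log axis) and its male-over-female log2 fold change; blue and red mark the 5385 genes called for males and the 5360 called for females, grey those not called. A dense blue band lies between 1 and 2 log2 units from the lowest levels upward, and the red points gather between about 10 and 100 CPM, with more of them than of the blue beyond 4 log2 units.

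The reads themselves were divided between these classes. The 2994 genes higher in males by 2-fold to 4-fold took 21.7% ± 0.821 (SD, n = 3) of male counts and 7.27% ± 1.22 of female counts. The 506 genes higher in males by 10-fold or more took 11.6% ± 1.86 of male counts, from 9.43% to 12.8% over the 3 libraries, and 0.215% ± 0.0563 of female counts. On the female side the 2-fold to 4-fold class took 24.05% ± 0.804 of female counts and 9.04% ± 0.609 of male counts. The 1117 genes higher in females by 10-fold or more took 13.1% ± 0.793 of female counts, from 12.3% to 13.8%, and 0.447% ± 0.0304 of male counts. The 182 genes of the 100-fold class of males held 8.22% ± 1.58 of male counts, against 4.68% ± 0.106 of female counts for the 309 genes of the 100-fold class of females. Much of the male share lay in a single gene of that class, Nasvi2EG017727. It alone held 5.96%, 2.89% and 4.88% of counts in male libraries 1, 2 and 3, so the higher male share is not a trait of the class as a whole.

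In each male library more genes were found than in any female library, and fewer genes made up most of the reads. At 1 CPM or more, 12487, 13133 and 12881 genes were found in male libraries 1, 2 and 3, and 11834, 12059 and 12156 in female libraries 1, 2 and 3. The means were 12834 ± 326 genes in males and 12016 ± 165 in females (SD, n = 3 each). An exact permutation test, two-sided and without pairing by replicate number, gave p = 0.1, the smallest p it allows for 3 against 3 libraries. By detection alone, 10519 genes reached 1 CPM in all 6 libraries. A further 835 reached it in all 3 male libraries and in no female library, and 553 in all 3 female libraries and in no male library.

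The number of genes that together held 50% of counts was 447, 567 and 475 in male libraries 1, 2 and 3 and 1041, 838 and 734 in female libraries 1, 2 and 3. Again the sexes did not overlap, with means of 496 ± 62.8 in males and 871 ± 156 in females (SD, n = 3 each; exact permutation test, two-sided, p = 0.1). The 10 most abundant genes of each library took 12.6%, 9.38% and 11.1% of counts in males and 4.30%, 4.76% and 4.85% in females (exact permutation test, two-sided, p = 0.1, n = 3 each). All of these 3 measures had the smallest p of this unpaired test, and adjusting over the 3 left it at 0.1.

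The genes that dominated a sex were mostly biased toward it. Of the 100 genes with the highest mean CPM in males, 78 were called for males, 6 for females and 16 for neither. Of the corresponding 100 genes in females, 80 were called for females, 7 for males and 13 for neither. Over all tested genes 32.6% were called for males and 32.4% for females. Each list was picked by level in its own sex, in the same libraries that gave the calls. Part of this lean is therefore given by the choice. The lists shared 24 genes, which is 24% of each. The male list held 27.9% ± 2.01 of male counts and the female list 18.2% ± 2.35 of female counts (SD, n = 3).

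**Figure D3:**
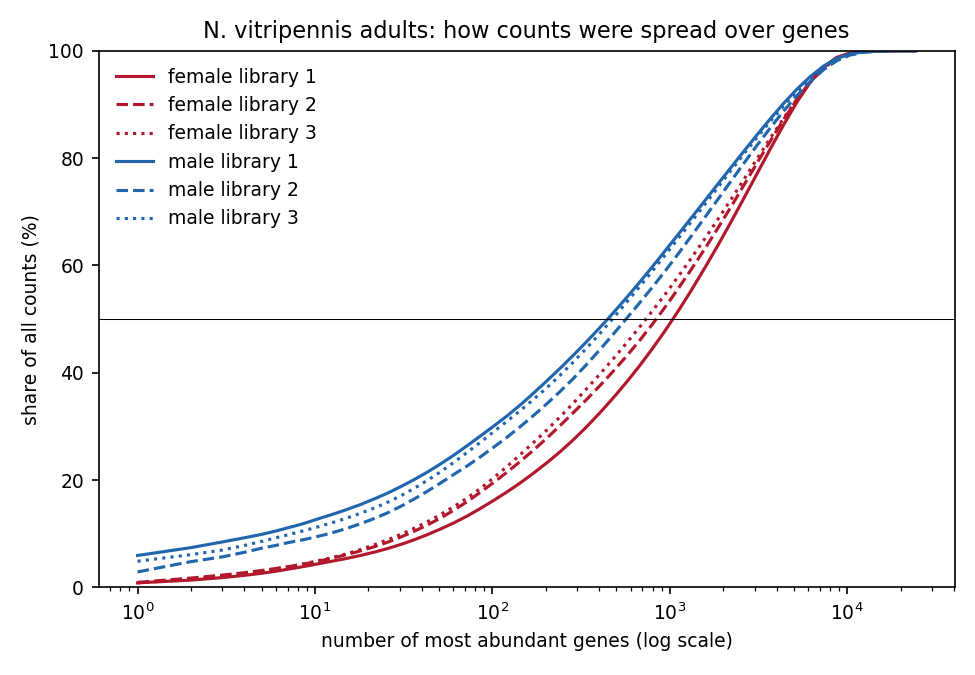
Share of all counts (vertical axis, %) held by the most abundant genes of each library (horizontal axis, number of genes, log scale), males in blue and females in red. The male curves cross the line at 50% between 447 and 567 genes and the female curves between 734 and 1041 genes.

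Nasvi2EG017727 took more reads than any other gene at least 10-fold higher in males. It stood at 60772 CPM in male library 1, 25562 in male library 2 and 48209 in male library 3, and at 78.2, 36.9 and 74.1 CPM in female libraries 1, 2 and 3. The sexes lay far apart, and library 2 was the lowest of the 3 in both sexes. The fitted male-over-female log2 fold change came to 9.47 (SE 0.58), a 711-fold difference (edgeR adjusted p = 2.38e-08). This single gene held 5.96%, 2.89% and 4.88% of all counts in male libraries 1, 2 and 3, and in libraries 1 and 3 that was more than the 10 most abundant genes together held in any female library (at most 4.85%).

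Nasvi2EG006973 was second by level in the male class of 10-fold or more, with a far smaller difference. It had 7870, 3026 and 5007 CPM in male libraries 1, 2 and 3 and 690, 166 and 388 CPM in female libraries 1, 2 and 3. The order of the libraries was the same in both sexes, with library 1 highest and library 2 lowest, and the sexes did not overlap. The log2 fold change was 3.68 (SE 0.48), a 12.8-fold difference (edgeR adjusted p = 2.67e-05). Its counts are fractional in the table, which is treated as a sign of reads shared with another gene, so the level is uncertain.

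Nasvi2EG023364 led the genes at least 10-fold higher in females. It stood at 4688, 4538 and 3602 CPM in female libraries 1, 2 and 3 and at 28.8, 14.4 and 18.0 CPM in male libraries 1, 2 and 3. The female values lay close together. The male-over-female log2 fold change came to -7.71 (SE 0.36), which is 209-fold higher in females (edgeR adjusted p = 2.21e-09). It held at most 0.462% of the counts of a female library, and no gene at least 10-fold higher in females held more than 0.664%.

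Nasvi2EG010626 was second by level in the female class of 10-fold or more and varied more. It had 1574, 2771 and 7154 CPM in female libraries 1, 2 and 3 and 7.52, 19.6 and 31.5 CPM in male libraries 1, 2 and 3. Library 1 was the lowest and library 3 the highest in both sexes, and the highest female value was 4.54 times the lowest. The sexes were still far apart, with a log2 fold change of -7.62 (SE 0.80), 197-fold higher in females (edgeR adjusted p = 6.91e-06).

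The 20 most abundant genes of each direction, at least 10-fold different and without overlap of libraries, show how unequal the classes were in males. The 20 male genes together held 9.03% ± 1.84 (SD, n = 3) of male counts and 0.157% ± 0.0476 of female counts. Of this male share, Nasvi2EG017727 alone held 5.96%, 2.89% and 4.88% of counts in male libraries 1, 2 and 3. The 20 female genes held 3.28% ± 0.224 of female counts and 0.0908% ± 0.00616 of male counts. Below the named pair, the other 18 male genes ranged from 1203 to 4444 CPM in males and from 3.38 to 11.46 log2 units of difference, and the other 18 female genes from 996 to 2647 CPM in females and from 3.40 to 8.91 log2 units. A difference of 100-fold or more was found in 12 of the 20 male genes and in 6 of the 20 female genes. The highest of the 3 male libraries was a median of 1.74 times the lowest for the male genes, and the corresponding value for the female genes in females was 1.41. Fractional counts, treated as a sign of reads shared with another gene, were found in 4 of the male and 1 of the female genes.

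**Figure D4:**
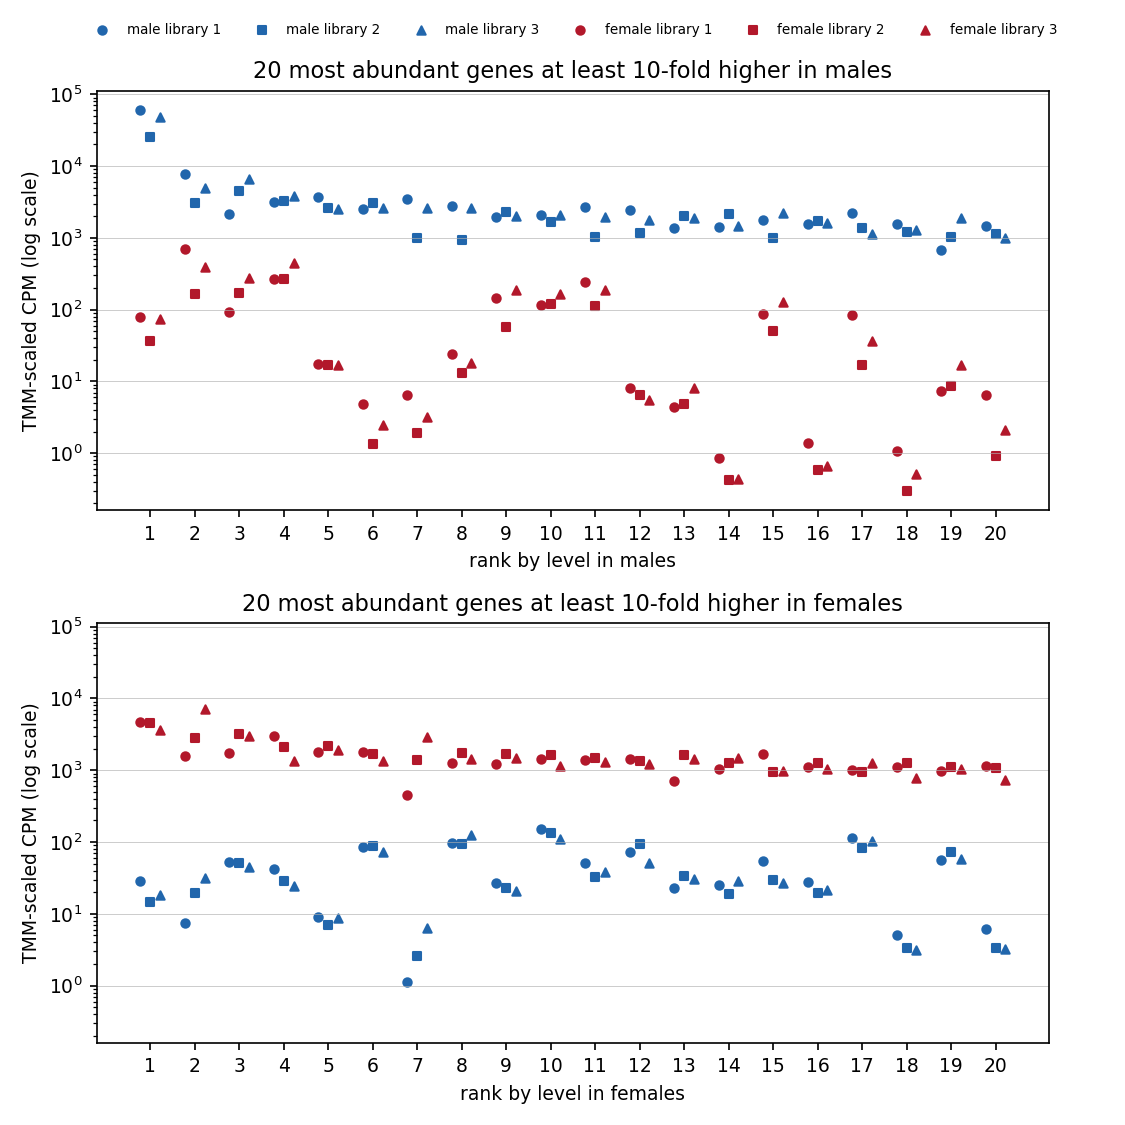
Level of the 20 most abundant genes at least 10-fold higher in males (top) and in females (bottom) in each of the 6 libraries (TMM-scaled CPM, log axis), ordered by level in the higher sex (horizontal axis, rank); blue points are males, red points females, and the shape gives the library number. Ranks 1 and 2 are Nasvi2EG017727 and Nasvi2EG006973 above and Nasvi2EG023364 and Nasvi2EG010626 below, and the first male gene stands far over the rest of its panel.

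Abundant genes with a strong bias were mostly still read in the other sex. Of the male class of 10-fold or more, 78 genes reached 100 CPM in males, and for these the median level in females was 0.769% of that in males, from 0.0267% to 9.77%. Among the 327 such genes of females the median level in males was 2.31% of that in females, from 0.0976% to 9.73%. Under 0.1% of the level of the higher sex were 13 of the 78 male genes and 1 of the 327 female genes. Over the whole classes of 10-fold or more, abundant or not, the median level in the other sex was 0.142 CPM for the 506 male genes and 0.757 CPM for the 1117 female genes. In the 100-fold classes it was 0.0597 CPM for male genes, within the range of the floor of 3 counts per library (0.0584 to 0.126 CPM), and 0.203 CPM for female genes.

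Genes limited to a sex were few and mostly low. With a mean of at least 1 CPM in a sex and at most 3 reads over the 3 libraries of the other, 83 genes were limited to males and 69 to females, 24 and 23 of them with no read at all in the other sex. The male-limited genes had a median of 7.02 CPM and reached 122 CPM, and 34 of them stood at 10 CPM or more. The female-limited genes had a median of 2.29 CPM and reached 51.0 CPM, and 8 stood at 10 CPM or more. Together the male-limited genes held 0.131% ± 0.0512 (SD, n = 3) of male counts and the female-limited genes 0.0380% ± 0.0110 of female counts. A count of 0 in a library allows up to 0.0584 to 0.126 CPM at these depths, from counting error alone. The deepest library of each sex set part of the count limited to the other sex. Without male library 1, 129 genes were female-limited, and without female library 1, 124 were male-limited. Without the libraries numbered 1 there were 127 male-limited and 123 female-limited genes. Fractional counts, treated as a sign of reads shared with another gene, were found in 9 of the 83 and 12 of the 69.

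Replicate pools had the smaller median spread in males. The median SD of log2(CPM + 0.5) over the 3 libraries was 0.256 in males and 0.301 in females over all tested genes, and the SD was the larger one in males for 41.08% of genes. Among called genes the median spread grew with bias on both sides, and more on the male side. The median SD in males was 0.216 for genes higher in males by under 2-fold. It was 0.278 for those higher by 2-fold to 4-fold and 0.545 for those higher by at least 100-fold. For the same classes of genes higher in females, the median SD in females was 0.244, 0.309 and 0.371. These classes hold only called genes, and a small difference is called more readily where the spread is small. Part of this growth is therefore given by the choice, and the classes also differed in level. The values describe genes, which are not replicates.

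The remaining 5791 tested genes (35.02%) were not called. Of these, 3412 differed by less than 1.5-fold in the fitted values. Another 1101 differed by at least 2-fold without passing, with a median of 0.747 CPM in the higher sex. An uncalled gene is not shown to be equal between the sexes.

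Genes with consecutive identifiers often shared a direction. Pairs are given only where both genes had whole counts, 8243 in all. Of the first genes of these pairs 31.3% were called higher in males, and after such a gene the next was called higher in males in 45.5% of pairs. For females the values were 37.2% and 50.1%. Among genes with whole counts, 31 runs of 5 or more consecutive identifiers were all called for males and 63 for females. The longest was of 10 genes in each direction. These runs held 184 and 356 genes, beside 13773 tested genes with whole counts. How many runs the share of called genes alone would give was not tested. With genes that have fractional counts included, the numbers of runs were 46 and 93. The sources used here do not say whether consecutive numbers are neighbours on a chromosome.

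The genes called in N. vitripennis were then looked at in the libraries of N. giraulti. These are not part of the contrast between the N. vitripennis sexes, but they shared its filter, scaling and estimate of the spread. With the N. vitripennis libraries alone, 14914 genes were tested and 5150 were called for males and 5004 for females. In N. giraulti 30% of tested genes were called for males and 26.9% for females. Of the 5385 genes higher in N. vitripennis males, 3732 (69.3%) were called higher in N. giraulti males, 66 (1.23%) higher in N. giraulti females and 1587 were not called. Of the 5360 genes higher in N. vitripennis females, 3985 (74.3%) were called higher in N. giraulti females, 112 (2.09%) in N. giraulti males and 1263 were not called. The 4 named genes were called in the same direction there, with log2 fold changes of 9.44 for Nasvi2EG017727, 3.62 for Nasvi2EG006973, -6.82 for Nasvi2EG023364 and -8.22 for Nasvi2EG010626, and none differed from N. vitripennis past 0.05 in the test of the difference (edgeR adjusted p from 0.216 to 0.995).

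The 100-fold classes were found again most often. Of the 182 male genes 170 (93.4%) were called higher in N. giraulti males, and of the 309 female genes 276 (89.3%) were called higher in N. giraulti females. For the 10-fold to 100-fold classes the shares were 79.6% in males and 86.8% in females, and for 4-fold to 10-fold 67.0% and 87.2%. For the 2-fold to 4-fold classes they were 67.6% in males and 74.5% in females, and for genes under 2-fold 69.9% in males and 37.9% in females. The share thus did not rise at each step of size. The male class of 2-fold to 4-fold had a median log2 fold change of 1.54 in N. vitripennis, where its width is set by its limits. In N. giraulti its median was 1.24, with quartiles of 0.87 and 1.56. The female class of the same size had medians of -1.47 in N. vitripennis and -1.04 in N. giraulti, with quartiles of -1.40 and -0.68 in N. giraulti. Medians were nearer zero in N. giraulti in all 10 classes. Genes chosen for a difference in a species are on average chosen for a favourable error there too, so part of this shift is given by the choice.

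The difference between the species was tested directly. In 1161 genes, 7.02% of those tested, the sex effect differed (edgeR quasi-likelihood interaction test, adjusted p under 0.05), of which 324 were called for males in N. vitripennis, 630 for females and 207 for neither. In the male class of 10-fold or more 119 of 506 (23.5%) passed, 108 of them with the effect in N. giraulti further toward females. In the female class of 10-fold or more 258 of 1117 (23.1%) passed, 227 of them with the effect in N. giraulti further toward males. The classes were chosen on the same N. vitripennis values that enter this test, so both the shares that passed and these directions are partly given by the choice. In the 2-fold to 4-fold classes 3.07% of male genes and 7.35% of female genes passed. With a block for the replicate number 2787 genes passed, without male library 3 of N. vitripennis 758, and 1429 without the libraries numbered 1. The sources used here do not say how the reads of N. giraulti were aligned, and its part in these differences was not tested.

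**Figure D5:**
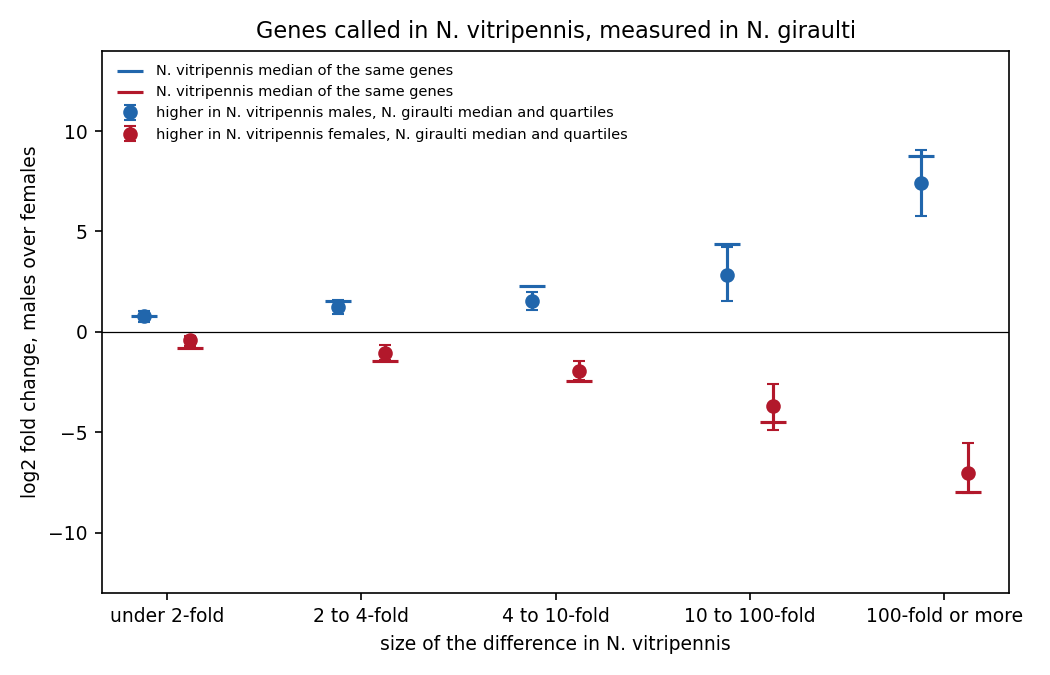
Log2 fold change of males over females (vertical axis) for genes called in N. vitripennis, grouped by the size of their difference there (horizontal axis) and coloured by direction; points and bars give the median and quartiles in N. giraulti, and short lines the N. vitripennis median of the same genes. Each N. giraulti median lies on the same side of zero as in N. vitripennis and nearer to it, for example 7.41 against 8.75 for genes at least 100-fold higher in males.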

How the data were processed

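Libraries were made from 2 ug of total RNA with a TruSeq version 2 kit, per the labels' protocols. The authors deposited estimated counts per gene, unscaled, some of them fractional. The submitters' processing notes name TopHat2 2.0, HTSeq, Cufflinks 2.1.0, Trimmomatic, CASAVA 1.8.2, edgeR, bedtools and FastQC without their roles. The sources used here do not give the genome build, the annotation or whether counting used strand, so overlapping genes may not be separated. The name table held 15501 genes, of which 0 matched.

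Groups follow the species and sex in the labels. Counts were rounded, genes kept by filterByExpr (edgeR 4.0.16, R 4.3.3, minimum count 10) and scaled by TMM factors, which left 16536 genes, and all 12 libraries entered one model, in which each group had its own mean (quasi-likelihood test). A gene was called at a Benjamini-Hochberg adjusted p under 0.05. Standard errors are the absolute log2 fold change over the square root of F. The common dispersion was 0.111 (33.3% coefficient of variation). The fit was tested on simulated data with known changes in a small part of the genes and libraries drawn independently. That test does not cover a difference in most genes, or libraries of the same replicate number that vary together. Counts per library use library totals as scale (Python 3.11.15, scipy 1.17.1). Of the 24337 genes, 3372 held a fractional value and are treated as sharing reads.

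Genes named are the 2 per direction with the highest level in the higher sex among calls of at least 10-fold without overlap. The comparison and this rule were chosen with earlier results of these data known. Replicate numbers pair the libraries by the data alone: deviations from the group mean correlated between the sexes with r of 0.449 to 0.667 for the same number and -0.467 to 0.15 for others. Alternatives were other scalings, filters and tests, the replicate number as a block, only the N. vitripennis libraries, libraries left out, and genes sharing reads left out. The gene and marker lists were not used, for want of names. Intervals and floors cover counting error only.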

Additional observations from a re-analysis of the deposited data

Results flagged for a closer look

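The sex effect of 1161 genes differed between N. vitripennis and N. giraulti in the interaction test. In 710 of them the effect in N. giraulti lay further toward males, and in 451 further toward females. The first kind made up 61.15% with TMM scaling, 46.21% by upper quartiles and 34.88% by library totals. Left out in turn, the N. vitripennis libraries gave 758 to 1104 genes, the lowest without male library 3, and 1429 genes differed without the libraries numbered 1.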

How the results depend on the processing

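The 4 named genes kept their direction and stayed past 0.05 in every refit that tested them, 67 results over the 4 genes. The highest adjusted p was 0.000639, in the edgeR test of the N. vitripennis libraries alone. Log2 fold changes were 9.16 to 10.04 for Nasvi2EG017727 and 3.25 to 4.27 for Nasvi2EG006973. They were -8.07 to -7.14 for Nasvi2EG023364 and -8.14 to -6.83 for Nasvi2EG010626. In a test against a 2-fold change 2775 genes were higher in males (also those at least 2-fold higher), 3429 higher in females, and 463 differed between the species; fewer calls follow from its stricter null. The replicate number as a block gave 6403 calls for males, 5975 for females, and 2787 in the test between the species. It moved no other count by over 1.5 times. No gene called in the main fit was called in the other direction in any refit (0 opposite calls). Genes that changed sign and lost their call were not counted. The DESeq2 Wald test gave 5776 and 5119. Leaving out each N. vitripennis library in turn gave 4617 to 5173 calls for males, 4848 to 5388 for females, and 758 to 1104 between the species, the lowest without male library 3. Male-limited genes numbered 24 with 0 reads required, 153 with up to 0.1 CPM allowed, 34 at 10 CPM or more, 127 without the libraries numbered 1 and 78 to 124 with a library left out. Female-limited genes numbered 23, 153, 8, 123 and 65 to 129 under the same settings. These counts move with the floor, and sums over fewer libraries reach 3 reads less often. The 3 measures of how reads were spread over genes kept their direction in every setting tried. The settings without the libraries numbered 1 were added for the sex-limited genes and these 3 measures after the data were seen.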
